A study of Rattus norvegicus with 6 samples.

Results

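The genes P4ha1, P4ha2, P4ha3, Plod1, Plod2, Plod3, Serpinh1, Lox, Loxl1 and Loxl2, encode enzymes and a chaperone that hydroxylate, fold and cross-link collagen. They were taken by gene name from per-library count tables of 18077 rows, and all 10 names had a single row each. RNA sequencing of polyA RNA covered 6 libraries from cultures that the labels call neonatal rat cardiomyocytes, prepared from pups 1 to 3 days old, with no strain given. The 3 libraries labelled Ad-RNF128 carried an adenovirus labelled with RNF128, a transmembrane ubiquitin ligase, and the 3 libraries labelled Ad-GFP carried an adenovirus labelled with green fluorescent protein. All 6 cultures were exposed to the saturated fatty acid palmitic acid (500 µM, 24 h) and harvested after 48 h, so no library without palmitate or without virus entered the comparison. Pre-plating and BrdU were used against fibroblasts, per the labels' protocols. The design asks which genes differ with RNF128 overexpression.

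Collagen chains are modified inside the endoplasmic reticulum before they are secreted. Prolyl 4-hydroxylases make the hydroxyprolines that keep the triple helix stable at body temperature, lysyl hydroxylases make the hydroxylysines used for sugar attachment and cross-links, and the chaperone HSP47, encoded by Serpinh1, binds the folded helix and escorts it towards secretion. Outside the cell, lysyl oxidases oxidise lysines so that neighbouring collagen or elastin molecules become covalently linked. Both hydroxylase families need iron, oxoglutarate, oxygen and ascorbate, and lysyl oxidases need copper. In the heart these genes are used mostly by fibroblasts and other matrix-producing cells.

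Totals ran from 17099149 to 21708973 counts in the libraries labelled Ad-RNF128 and from 16352843 to 21332585 in those labelled Ad-GFP. Rnf128 itself had 1, 3 and 1 counts in the libraries labelled Ad-RNF128 and 0, 2 and 1 counts in those labelled Ad-GFP, so the rat gene does not bear out the label. Another ubiquitin ligase gene, Rnf157, was at 1923 to 2553 CPM (the count scaled to 1000000 per library) in the libraries labelled Ad-RNF128, against 22.3 to 40.4 CPM in those labelled Ad-GFP. Every direction below is for libraries so labelled. Ad-GFP replicate 1 stood apart, its counts over tested genes giving Spearman correlations between 0.583 and 0.665 with the rest, which correlated at 0.955 to 0.997 among themselves. The members' results are therefore given without it and with it. Cardiomyocyte markers were low for the labelled cell type. The 13 markers found summed to 78.9 to 165 CPM in the libraries labelled Ad-RNF128, and to 191 CPM in Ad-GFP replicate 1 and 449 and 440 CPM in replicates 2 and 3, most of the last 2 sums being Tnnt2. The 78.9 CPM belonged to Ad-RNF128 replicate 3, where 9 of the 13 markers were under 1 CPM, against 1 to 2 in every other library. The heavy chain gene Myh6 reached 16.0 CPM at most. The skeletal muscle regulator gene Myod1 was at 25.3 to 32.7 CPM in the libraries labelled Ad-RNF128 and at 50.5 to 63.3 CPM in those labelled Ad-GFP. Of 7 listed skeletal myoblast markers, 5 had a row. They summed to 40.1 to 43.8 CPM in the libraries labelled Ad-RNF128 and 76.4 to 92.2 CPM in those labelled Ad-GFP. Without Ad-GFP replicate 1, 3 of the 5 were lower, Myod1 among them, and 1 was higher, against 28.0% and 28.9% of all genes. With all 6 libraries, 0 of 4 tested were called, and 2 had an unadjusted edgeR p under 0.05.

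Without Ad-GFP replicate 1, the set mostly fell, with P4ha1 as the exception. Of the 10 genes, 8 were lower and 1 was higher at an edgeR adjusted p under 0.05, with P4ha2 the remaining gene. Over all 13173 genes tested, 28.0% were lower and 28.9% higher by the same rule. The lower members are to be read against that share, since most genes passed in 1 direction or the other. P4ha3, Lox, Loxl1, Serpinh1 and Plod2 were called lower and fell at least 2-fold, and 3.79% of all genes tested met both conditions. With library totals Plod2 had a log2 change of -0.92, under 2-fold. The median log2 change was -0.84 over the 10 genes and 0.01 over all genes. Scaling by library totals alone moved the median of all genes to 0.17 and the split of all calls to 5367 higher and 2409 lower, from 3812 higher and 3689 lower, and left the members at 8 lower and 1 higher.

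**Figure D1:**
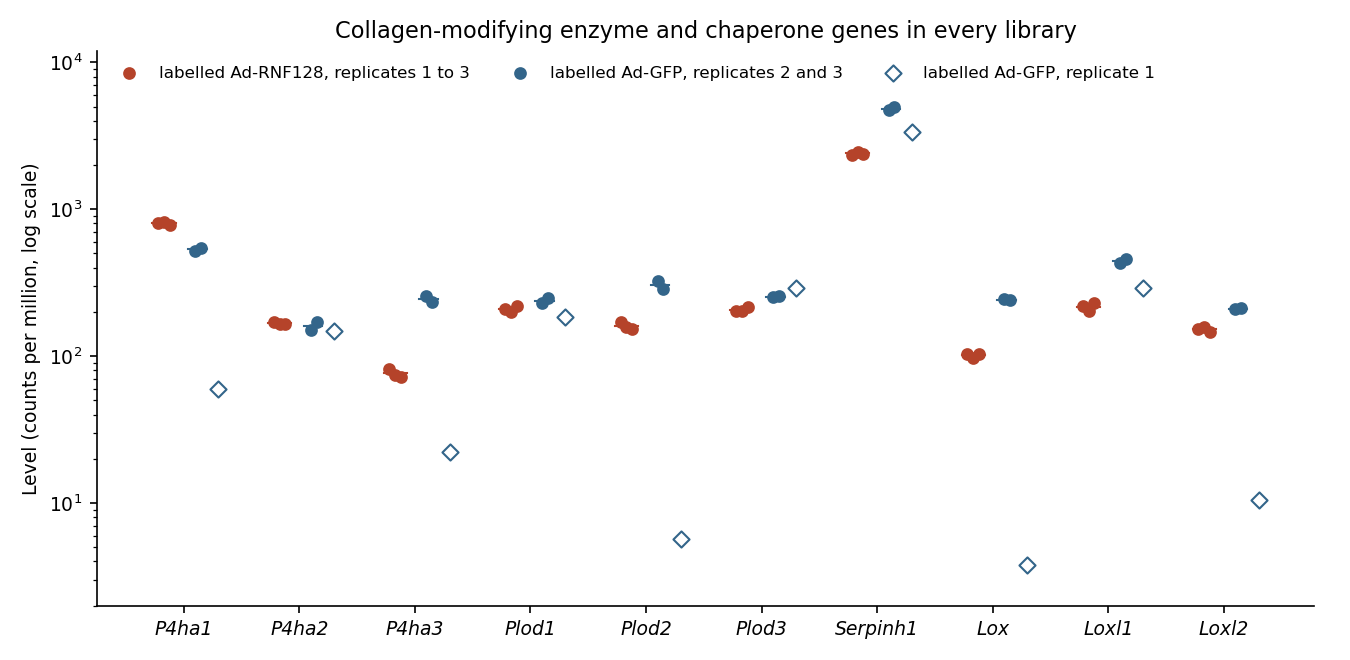
Level of each gene in every library, in CPM on a log scale; filled points are libraries labelled Ad-RNF128 (left of each pair) and Ad-GFP replicates 2 and 3 (right), short lines their means, and open diamonds Ad-GFP replicate 1. P4ha1 lies higher in the 3 libraries labelled Ad-RNF128 than in every Ad-GFP library, and the open diamond lies more than 8-fold below the other Ad-GFP points for 5 of the 10 genes.

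With all 6 libraries, edgeR called 0 of the 10 genes and 0 of 12863 genes, 0.0% of those tested. At an unadjusted p under 0.05 there were 2 members, Loxl1 and Serpinh1, and 742 of all genes. DESeq2 and limma-voom also called 0 members, while calling 1.55% and 0.109% of all genes. The groups were nevertheless separate in CPM for 4 members. P4ha1 was higher in every library labelled Ad-RNF128 than in every Ad-GFP library, as were 30.4% of all genes. Plod3, Serpinh1 and Loxl1 were lower in the same sense, against 3.59% of all genes. For 3 against 3 libraries the smallest exact two-sided permutation p is 0.1, which these 4 genes reached on the log2(CPM + 1) scale, and P4ha2, P4ha3, Plod1, Plod2, Lox and Loxl2 had p of 0.4 to 1.0. On that scale the mean differences of P4ha2, Plod2, Lox and Loxl2 over all 6 libraries were 0.096, 0.92, 0.64 and 0.94. These lay above 0 where the edgeR values were below it. The labels do not say that replicates came from separate animals or cultures, so p-values measure the spread between these libraries, which may be technical.

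**Figure D2:**
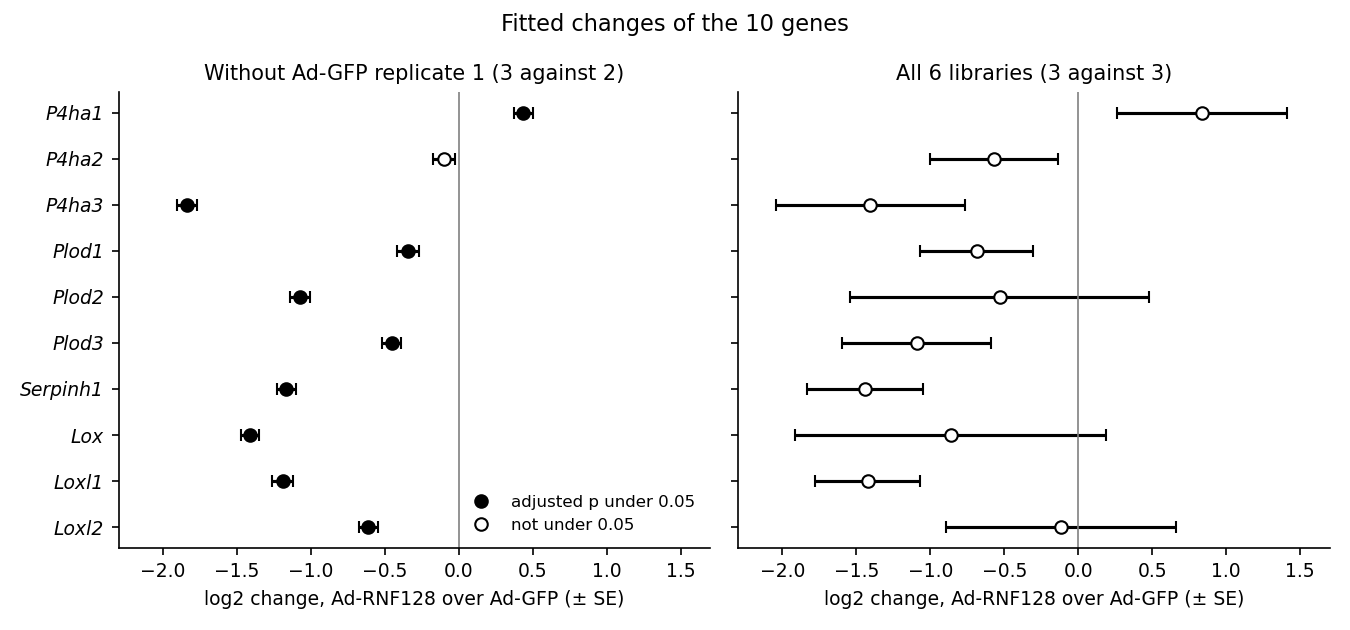
Log2 change of each gene, Ad-RNF128 over Ad-GFP, with the SE of the edgeR fit as bars, without Ad-GFP replicate 1 (left) and with all 6 libraries (right). Filled points have an adjusted p under 0.05. P4ha1 is the single gene above 0 in both panels, and the bars widen on the right, to an SE of 1.05 for Lox.

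The prolyl 4-hydroxylase subunits moved in different directions. P4ha1 (ENSRNOG00000050655) encodes the main catalytic subunit of the enzyme. It was at 806.6, 814.8 and 784.2 CPM in the libraries labelled Ad-RNF128, against 522.1 and 543.2 CPM in Ad-GFP replicates 2 and 3 and 60.1 CPM in Ad-GFP replicate 1. The 3 libraries labelled Ad-RNF128 were the highest of the 6. P4ha1 rose by a log2 change of 0.44 ± 0.06 (SE, 3 against 2 libraries, edgeR adjusted p = 3.92e-05), and its log2 change over all 6 libraries was 0.84 ± 0.57 (adjusted p = 0.697).

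P4ha3 (ENSRNOG00000017118), an alternative catalytic subunit, had the largest fall of the 10 genes without Ad-GFP replicate 1. It was at 81.8, 74.5 and 72.2 CPM in the libraries labelled Ad-RNF128, against 255.1 and 234.9 CPM in Ad-GFP replicates 2 and 3 and 22.1 CPM in Ad-GFP replicate 1. Ad-GFP replicates 2 and 3 were above every library labelled Ad-RNF128, and Ad-GFP replicate 1 was below them all. P4ha3 fell with a log2 change of -1.84 ± 0.07 (edgeR adjusted p = 1.34e-11), a level 3.58-fold lower, and its value over all 6 libraries was -1.41 ± 0.64 (adjusted p = 0.681).

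P4ha2 (ENSRNOG00000033663), the third catalytic subunit gene, was at 169.8, 165.1 and 166.7 CPM in the libraries labelled Ad-RNF128, against 148.0, 150.8 and 171.1 CPM in Ad-GFP replicates 1, 2 and 3. The groups overlapped, and Ad-GFP replicate 1 lay close to the rest. Its log2 change was -0.10 ± 0.07 (edgeR adjusted p = 0.251) without that library and -0.57 ± 0.43 (adjusted p = 0.723) with it. The sign turned with library totals alone, to 0.054 and 0.094. P4hb, the partner subunit of these enzymes and a general disulphide isomerase, was named after its values were seen. It was at 1305 to 1416 CPM in the libraries labelled Ad-RNF128, against 1318 and 1381 CPM in Ad-GFP replicates 2 and 3 and 334.6 CPM in replicate 1, with a log2 change of -0.13 ± 0.07 (edgeR adjusted p = 0.102) without replicate 1 and 0.08 ± 0.38 (adjusted p = 0.985) with it.

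The make-up of the family therefore differed between the groups. P4ha1 supplied 76.2%, 77.3% and 76.6% of the reads of the 3 subunit genes in the libraries labelled Ad-RNF128, against 56.3% and 57.2% in Ad-GFP replicates 2 and 3 and 26.1% in replicate 1. P4ha3 supplied 7.73%, 7.07% and 7.06% in the libraries labelled Ad-RNF128, against 27.5% and 24.7% in Ad-GFP replicates 2 and 3 and 9.59% in replicate 1. Both shares were separate between the groups with all 6 libraries (exact two-sided permutation p = 0.1, the smallest possible). These are shares of reads and not per transcript length, so they are compared between libraries and not between genes. Their 95% Wilson intervals were at most ± 1.53 percentage points, for counting error only.

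Promoter sequence is shown for this family because its members differed in direction, and for Plod2 because it is known, like P4ha1 and P4ha2, as a target of hypoxia-inducible factors in human and mouse cells. RefSeq promoters of build GRCr8, a later build than the mRatBN7.2 of the counts, were found for 8 of the 10 genes, and not for Lox and Loxl2. Each window runs from 250 bases before the gene start, as that table places it, to 50 after it. The stretch before the start is printed 5′ to 3′ on the gene's strand, with the core of the hypoxia response element (ACGTG, or CACGT on the other strand) in capitals. The printed stretches lie at chr20:27844796-27845045 (P4ha1, plus strand), chr10:38743644-38743893 (P4ha2, plus strand), chr1:164040614-164040863 (P4ha3, plus strand) and chr8:101964068-101964317 (Plod2, plus strand).
P4ha1: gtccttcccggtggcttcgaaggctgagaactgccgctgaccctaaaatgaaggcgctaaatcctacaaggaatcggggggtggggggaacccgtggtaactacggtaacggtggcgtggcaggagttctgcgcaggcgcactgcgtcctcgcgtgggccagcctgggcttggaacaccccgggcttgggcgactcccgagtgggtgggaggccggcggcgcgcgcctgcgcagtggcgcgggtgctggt
P4ha2: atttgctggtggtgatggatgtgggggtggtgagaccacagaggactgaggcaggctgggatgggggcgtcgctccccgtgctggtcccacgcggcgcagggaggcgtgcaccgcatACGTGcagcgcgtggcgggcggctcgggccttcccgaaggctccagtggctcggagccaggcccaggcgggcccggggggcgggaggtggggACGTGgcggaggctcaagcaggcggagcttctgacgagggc
P4ha3: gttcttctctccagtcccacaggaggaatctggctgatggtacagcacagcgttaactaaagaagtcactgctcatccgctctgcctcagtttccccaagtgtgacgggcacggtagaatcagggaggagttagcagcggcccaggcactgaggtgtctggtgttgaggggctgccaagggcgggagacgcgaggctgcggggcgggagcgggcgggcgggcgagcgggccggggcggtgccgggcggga
Plod2: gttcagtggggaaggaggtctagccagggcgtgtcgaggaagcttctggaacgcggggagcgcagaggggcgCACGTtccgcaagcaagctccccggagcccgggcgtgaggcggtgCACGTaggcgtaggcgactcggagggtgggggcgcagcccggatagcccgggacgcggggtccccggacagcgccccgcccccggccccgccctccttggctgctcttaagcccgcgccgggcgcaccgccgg

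Within the full 300-base windows, P4ha1 held 1 core, starting 12 bases after the start in actgagcgCACGTagcgagag (chr20:27845049-27845069). P4ha2 held 2, beginning 133 and 41 bases before the start, and Plod2 held 2, at 178 and 133 bases before it. P4ha3, Plod1, Plod3, Serpinh1 and Loxl1 held 0. The core was present in 3 of these 8 windows and in 19.3% of all 33469 promoter windows, a sequence CACGTG counting on both strands. The GC box GGGCGG, or CCGCCC, was present in 7 of the 8, all but Loxl1, and in 33.1% of all windows, and P4ha3 held 6 matches, overlapping ones counted apart. The CCAAT box, CCAAT or ATTGG, and the TATA box, TATAAA or TTTATA, were in 0 of the 8, against 37.5% and 14.2% of all windows. A match describes letters and not a bound site. P4ha1, P4ha2 and Plod2, the 3 genes with a core, had log2 changes of 0.44, -0.10 and -1.07 without Ad-GFP replicate 1.

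The lysyl hydroxylases all fell without Ad-GFP replicate 1, Plod2 the most. Plod2 (ENSRNOG00000030183) hydroxylates lysines in the telopeptides at the ends of the helix, the modification behind the stiff cross-links of scar collagen. It was at 171.9, 159.0 and 153.1 CPM in the libraries labelled Ad-RNF128, against 326.0 and 284.8 CPM in Ad-GFP replicates 2 and 3 and 5.69 CPM in Ad-GFP replicate 1. Replicate 1 was the lowest library by far and replicates 2 and 3 the highest. Plod2 fell with a log2 change of -1.07 ± 0.07 (edgeR adjusted p = 7.28e-09), and over all 6 libraries the value was -0.53 ± 1.01 (adjusted p = 0.94).

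Plod1 (ENSRNOG00000007763), which hydroxylates lysines within the helix, was at 207.8, 198.7 and 220.8 CPM in the libraries labelled Ad-RNF128, against 228.8 and 248.0 CPM in Ad-GFP replicates 2 and 3 and 184.3 CPM in Ad-GFP replicate 1. The fall against replicates 2 and 3 was small, and replicate 1 lay below every other library. Its log2 change was -0.34 ± 0.07 (edgeR adjusted p = 0.000891) without replicate 1 and -0.69 ± 0.38 (adjusted p = 0.681) with it.

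Plod3 (ENSRNOG00000001417), which also adds sugars to hydroxylysine, was at 202.2, 201.4 and 216.6 CPM in the libraries labelled Ad-RNF128, against 291.3, 252.9 and 256.2 CPM in Ad-GFP replicates 1, 2 and 3. All 3 libraries labelled Ad-RNF128 were lower than every Ad-GFP library. Plod3 fell with a log2 change of -0.45 ± 0.07 (edgeR adjusted p = 3.28e-05), and over all 6 libraries it was -1.09 ± 0.50 (adjusted p = 0.681). Within the family, Plod2 took 29.5%, 28.4% and 25.9% of reads in the libraries labelled Ad-RNF128, against 40.4% and 36.1% in Ad-GFP replicates 2 and 3 and 1.18% in replicate 1 (95% Wilson intervals at most ± 1.08 points).

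Serpinh1 (ENSRNOG00000016831), the chaperone gene, was at 2355, 2451 and 2392 CPM in the libraries labelled Ad-RNF128, against 4704 and 4967 CPM in Ad-GFP replicates 2 and 3 and 3375 CPM in Ad-GFP replicate 1. The libraries labelled Ad-RNF128 were below all 3 Ad-GFP libraries and differed little among themselves. They averaged 2400 ± 48.4 CPM (SD, n = 3), against 4836 ± 185.6 CPM in Ad-GFP replicates 2 and 3 (SD, n = 2). Serpinh1 fell with a log2 change of -1.17 ± 0.06 (edgeR adjusted p = 1.08e-09), a level 2.24-fold lower, and over all 6 libraries the value was -1.44 ± 0.39 (unadjusted p = 0.0102, adjusted p = 0.412). TMM, the scaling of the edgeR fit, gave Ad-GFP replicate 1 a factor of 0.47 and the remaining libraries 1.08 to 1.22. Log2 changes over all 6 libraries rest on that factor. With library totals in its place they were -0.86 for Serpinh1, -0.86 for Loxl1, -0.37 for Plod3 and -0.075 for Plod1, all of them smaller falls than with TMM and none called.

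The lysyl oxidase genes Lox, Loxl1 and Loxl2 fell as well, without Ad-GFP replicate 1. Loxl3 and Loxl4, oxidase genes outside the listed members, did not fall in that fit. Loxl3 had a log2 change of -0.0044 (edgeR adjusted p = 0.96), and Loxl4 was called higher at 0.22 (edgeR adjusted p = 0.00727). Lox (ENSRNOG00000014426), the founding enzyme of the family, was at 102.8, 97.8 and 103.7 CPM in the libraries labelled Ad-RNF128, against 245.6 and 239.6 CPM in Ad-GFP replicates 2 and 3. Ad-GFP replicate 1 held 62 Lox counts, or 3.79 CPM with an exact Poisson 95% interval of 2.91 to 4.86 CPM, the lowest of the 60 member values. Lox fell with a log2 change of -1.41 ± 0.06 (edgeR adjusted p = 9.84e-11), 2.66-fold lower. Over all 6 libraries the value was -0.86 ± 1.05 (adjusted p = 0.871), and -0.10 with limma-voom.

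Loxl1 (ENSRNOG00000008680), which is needed for elastic fibres in mice, was at 219.4, 202.4 and 228.5 CPM in the libraries labelled Ad-RNF128, against 290.0, 433.1 and 455.3 CPM in Ad-GFP replicates 1, 2 and 3. The groups did not overlap. Loxl1 fell with a log2 change of -1.19 ± 0.07 (edgeR adjusted p = 2.36e-09), 2.28-fold lower, and over all 6 libraries it was -1.42 ± 0.35 (unadjusted p = 0.00695, adjusted p = 0.335).

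Loxl2 (ENSRNOG00000016758), which also acts on basement membrane collagen, was at 154.0, 156.7 and 147.1 CPM in the libraries labelled Ad-RNF128, against 208.3 and 211.1 CPM in Ad-GFP replicates 2 and 3 and 10.5 CPM in Ad-GFP replicate 1. It was the least reduced of the 3 listed oxidase genes without replicate 1. Its log2 change was -0.61 ± 0.06 (edgeR adjusted p = 1.18e-06), and over all 6 libraries -0.12 ± 0.78 (adjusted p = 0.99). Of the summed reads of Lox, Loxl1 and Loxl2, Loxl2 supplied 32.3%, 34.3% and 30.7% in the libraries labelled Ad-RNF128. It supplied 23.5% and 23.3% in Ad-GFP replicates 2 and 3 and 3.44% in replicate 1. Loxl1 supplied 46.1%, 44.3% and 47.7%, against 48.8% and 50.3% in Ad-GFP replicates 2 and 3 and 95.3% in replicate 1. Both shares were separate between the groups (exact permutation p = 0.1 each, the smallest possible), and their 95% Wilson intervals were at most ± 1.08 points. Loxl3 and Loxl4, oxidase genes outside the 10, are not counted in these shares. Loxl3 was at 240.6 CPM in Ad-GFP replicate 1, beside 290.0 CPM for Loxl1, so 95.3% is not a share of all lysyl oxidase reads.

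**Figure D3:**
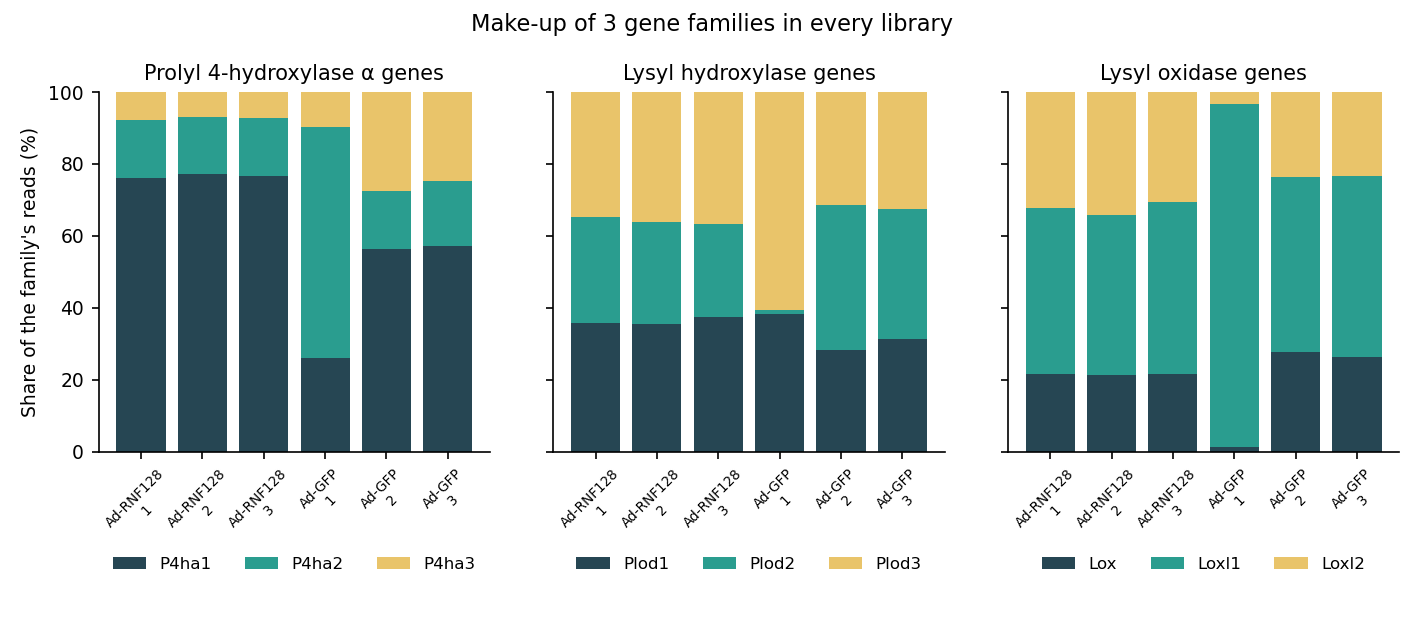
Share of each gene in the summed reads of the listed genes of its family, in percent of reads and not per transcript length. The 3 libraries labelled Ad-RNF128 are the left bars and the 3 labelled Ad-GFP the right bars, and Loxl3 and Loxl4 are not counted. P4ha1 takes 76.2% to 77.3% in the libraries labelled Ad-RNF128 and less in each Ad-GFP library. Ad-GFP replicate 1 has the most unequal make-up among the listed lysyl hydroxylase genes and among the listed lysyl oxidase genes.

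The substrates of these enzymes fell too, without Ad-GFP replicate 1. Col1a1, Col1a2 and Col3a1, the main fibrillar collagen genes, summed to 10955, 10086 and 10632 CPM in the libraries labelled Ad-RNF128, against 37841 and 39521 CPM in Ad-GFP replicates 2 and 3 and 2954 CPM in replicate 1. Their log2 changes without replicate 1 were -2.37 ± 0.07, -1.82 ± 0.07 and -1.62 ± 0.07 (edgeR adjusted p = 9.7e-13, 1.05e-11 and 4.67e-11). The other 2 listed substrates, Col5a1 and Col5a2, had log2 changes of -1.69 ± 0.06 and -0.77 ± 0.06 (edgeR adjusted p = 1.72e-11 and 5.6e-08). With all 6 libraries the values of Col1a1, Col1a2 and Col3a1 were -1.89, -1.41 and -1.07, those of Col5a1 and Col5a2 were -1.21 and -0.30, and none was called. For 100 reads of Col1a1, Col1a2 and Col3a1 there were 40.8, 44.8 and 42.2 reads of the 10 genes in the libraries labelled Ad-RNF128, against 19.4 and 19.3 in Ad-GFP replicates 2 and 3 and 148.7 in replicate 1. For Serpinh1 alone there were 21.5, 24.3 and 22.5 reads in the libraries labelled Ad-RNF128, against 12.4 and 12.6 in Ad-GFP replicates 2 and 3 and 114.3 in replicate 1. The direction of both ratios depends on replicate 1, and with all 6 libraries the exact permutation p was 1.0 for each.

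**Figure D4:**
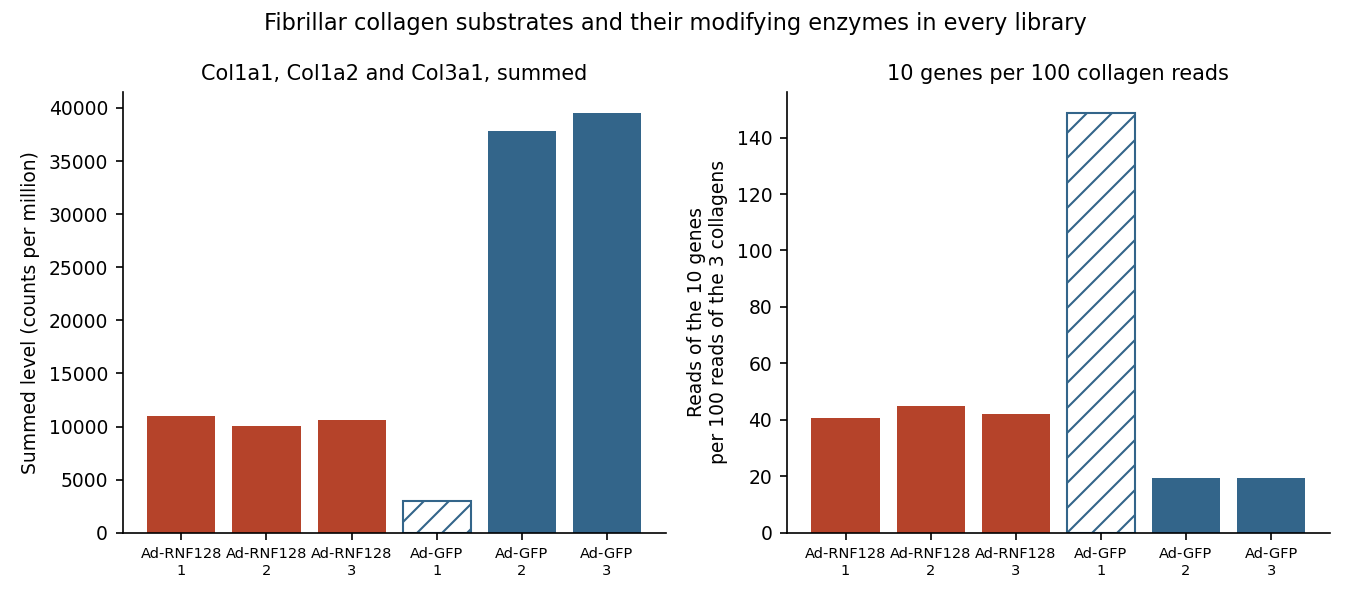
Left, summed level of Col1a1, Col1a2 and Col3a1 in CPM; right, reads of the 10 genes per 100 reads of these collagens; each bar is 1 library, with Ad-GFP replicate 1 hatched. The right-hand ratio is 40.8 to 44.8 in the libraries labelled Ad-RNF128, between 19.3 and 19.4 in Ad-GFP replicates 2 and 3 and 148.7 in replicate 1.

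Markers of other cell types also differed between the groups. The 9 fibroblast markers summed to 733 to 815 CPM in the libraries labelled Ad-RNF128, against 996 and 925 CPM in Ad-GFP replicates 2 and 3 and 348 CPM in replicate 1. Of 8 tested, 4 (Lum, Postn, Ddr2 and Mfap5) were lower and 0 higher without replicate 1, against 28.0% and 28.9% of all genes. The other 4 tested, among them Thy1 (log2 change of 0.17, adjusted p = 0.0595), were not called. Thy1 was at 287 to 305 CPM in the libraries labelled Ad-RNF128, above the 224 to 286 CPM of those labelled Ad-GFP. Tcf21 had at most 1 read in any of the 6 libraries, and Dcn and Lum were under 2 CPM in all 6. The 5 smooth muscle markers summed to 5062 to 5634 CPM in the libraries labelled Ad-RNF128, against 4695 to 5878 CPM in those labelled Ad-GFP, and 2 of them were higher and 2 lower without replicate 1. Of 3 macrophage markers tested there 2 were higher, and all 5 summed to 3.48 to 4.56 CPM in the libraries labelled Ad-RNF128, against 0.917 to 1.33 CPM in those labelled Ad-GFP. Of 5 endothelial markers, 4 were under 1 CPM in every library. All 5 summed to 6.8 to 7.78 CPM in the libraries labelled Ad-RNF128, against 4.55 to 6.12 CPM in those labelled Ad-GFP. Both of the 2 tested without replicate 1 were higher. With all 6 libraries edgeR called 0 markers of the fibroblast, smooth muscle, macrophage and endothelial lists. An unadjusted p under 0.05 was found there for 1 marker of each of the first 3 lists and for 0 endothelial markers. In bulk RNA, fewer cells of a type and less RNA per cell cannot be told apart, and the part of these markers in the falls was not tested.

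Other genes of collagen processing mostly fell too. Of 30 listed genes, 25 had a row and 23 were tested without Ad-GFP replicate 1, of which 17 were lower and 3 higher, against 28.0% and 28.9% of all genes. Their median log2 change was -0.35. The 3 lower genes with the smallest p were Pxdn, a peroxidase that cross-links collagen of basement membranes, Tll1, a protease that trims procollagen, and Sec23a, a coat subunit of the vesicles that carry procollagen, with log2 changes of -1.61 ± 0.07, -1.70 ± 0.09 and -1.12 ± 0.06 (edgeR adjusted p = 6.85e-11, 3.77e-10 and 1.78e-09). The 3 higher genes were the transglutaminase gene Tgm2, the cation channel gene Tmem38b and the lysyl oxidase gene Loxl4, with log2 changes of 1.20 ± 0.14, 0.60 ± 0.08 and 0.22 ± 0.06 (edgeR adjusted p = 3.41e-06, 1.28e-05 and 0.00727). With all 6 libraries the log2 changes were -1.12, -1.13 and -0.57 for Pxdn, Tll1 and Sec23a, and 0.50, 1.06 and 0.61 for Tgm2, Tmem38b and Loxl4. EdgeR, DESeq2 and limma-voom then called 0 of the 23, and 2 had an unadjusted edgeR p under 0.05. In CPM the groups were separate for 4 higher and 5 lower genes of the list, against 30.4% and 3.59% of all genes.

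Known targets of hypoxia-inducible factors were listed because P4ha1, P4ha2, Plod2, Lox and Loxl2 are counted among them in human and mouse cells. Of 12 other listed targets tested without Ad-GFP replicate 1, 9 were higher and 0 lower, with a median log2 change of 0.41, where 28.9% of all genes were higher. Bnip3, Slc2a1 and Adm, the 3 with the smallest p, had log2 changes of 1.75 ± 0.08, 1.33 ± 0.10 and 1.21 ± 0.11 (edgeR adjusted p = 2.06e-10, 3.22e-08 and 2.74e-07). Of the 5 members, P4ha1 rose, P4ha2 had a log2 change of -0.10 and Plod2, Lox and Loxl2 fell in the same fit. A part of hypoxia-inducible factors in the members' changes was not tested. Adm was at 45.8 CPM in Ad-GFP replicate 1, above the 24.8 to 29.6 CPM of the libraries labelled Ad-RNF128, and with all 6 libraries the values of Bnip3, Slc2a1 and Adm were 2.27, 0.26 and -0.82, edgeR called 0 of the 11 targets tested and 1 had an unadjusted p under 0.05.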

How the data were processed

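The members and the gene lists were chosen with earlier results of these data known. The authors deposited read counts for each gene in a separate table for every library. The column of Ad-GFP replicate 1 was handled as estimated counts deposited by the authors, because 1 value in it is not whole, and was rounded. That value equals the mean of Ad-GFP replicates 2 and 3 in the same row, and no source used here says how the column was made. Per the submitters' processing notes, HISAT2, HTSeq 0.13.5 and mRatBN7.2 were used. No source used here gives the strand setting, so reads of overlapping or antisense genes may be shared.

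CPM is the count times 1000000 over the library total. Tests used edgeR 4.0.16 in R 4.3.3 (filterByExpr, TMM, quasi-likelihood F-test) on the whole table, with Benjamini-Hochberg adjustment over all genes tested, a threshold of 0.05, and the SE derived from the F statistic. With 2 control libraries, the spread is pooled over both groups. Alternatives were median-of-ratios factors, library totals, DESeq2 1.42.0, limma-voom (limma 3.58.1), no low-count filter, at least 10 counts in 3 libraries, a replicate block, and each library left out. The fits were tested on simulated data. Exact permutation tests and Wilson intervals used scipy 1.17.1. Named genes outside the 10 members are up to 3 with the smallest p in each direction of each list, the collagens Col1a1, Col1a2 and Col3a1, and Rnf128 and Rnf157; a gene that this rule names is not reported here. The 10 genes had 62 to 105957 counts per library, and intervals cover counting error only.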

Additional observations from a re-analysis of the deposited data

How the results depend on the processing

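Without Ad-GFP replicate 1, the count of members called stayed at 1 higher and 8 lower under every other scaling, tool, filter and the replicate block, and leaving out a further library gave 1 higher and 8 to 9 lower. Other collagen-processing genes called there ran from 3 to 4 higher and 13 to 17 lower across settings, and 3 higher and 14 to 17 lower with a further library left out. P4ha2 turned to 0.054 with library totals and to 0.020 without Ad-GFP replicate 3, and was called lower without Ad-GFP replicate 2 (-0.21, adjusted p = 0.0326). With all 6 libraries, 0 members were called under every setting except without Ad-GFP replicate 1, so leaving out a library gave 0 to 1 higher and 0 to 8 lower members, and 0 to 3 higher and 0 to 17 lower other processing genes. Signs turned there for P4ha2 (0.094 with library totals), Plod2 (0.17 with limma-voom, 0.14 with the replicate block) and Loxl2 (0.091 with library totals, 0.24 with limma-voom, 0.33 with the replicate block, 0.20 without Ad-GFP replicate 2, and -0.61 to 0.26 over all libraries left out). None of the turned values was called, and the cause was not tested. The -0.61 of Loxl2 is the fit without Ad-GFP replicate 1, where Loxl2 was called lower. Library totals moved the median of all genes over 6 libraries to 0.35, against -0.02 with TMM. Whether the replicate numbers pair the libraries was not settled. With all 6 libraries, correlations of deviations from the group mean were -0.193, 0.027 and -0.164 for numbers 1, 2 and 3. In that comparison 1 of the 3 libraries labelled Ad-RNF128 correlated best with its own number. Ad-GFP replicate 1, which stood apart, enters the Ad-GFP mean there, so these values cannot decide it. For replicates 2 and 3 of both groups alone the correlation was 0.149. The lowest member counts were in Ad-GFP replicate 1, where Lox and Plod2 rest on 62 and 93 counts. Its total of 16352843 counts was near the 17099149 of Ad-RNF128 replicate 1, which held 1758 Lox counts.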

Other observations

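A list of 8 genes tied to TGF-beta, a main inducer of collagen and Lox, did not share a direction. It mixes genes that respond to TGF-beta with the ligand genes Tgfb1 and Tgfb2. Without Ad-GFP replicate 1, 4 of 8 were higher and 4 lower, against 28.9% and 28.0% of all genes. Their median log2 change was -0.07, and a part of TGF-beta in the members' changes was not tested. Tgfb1, the cytokine itself, and Skil, a feedback repressor, had log2 changes of 0.48 ± 0.08 and 0.23 ± 0.08 (edgeR adjusted p = 7.95e-05 and 0.0167). The call for Skil ended without Ad-GFP replicate 3 (0.18, adjusted p = 0.119) and without Ad-RNF128 replicate 2 (0.19, adjusted p = 0.0696). Tgfbi, a matrix protein gene, Tgfb2 and the matrix gene Ltbp2 fell, with log2 changes of -1.41 ± 0.10, -0.79 ± 0.07 and -0.84 ± 0.07 (edgeR adjusted p = 1.35e-08, 1.9e-07 and 1.97e-07). With all 6 libraries the values of Tgfb1 and Skil were -1.79 and 0.78, those of Tgfbi, Tgfb2 and Ltbp2 were -0.96, -0.24 and -0.72, edgeR called 0 of the 8, and 0 had an unadjusted p under 0.05. Tgfb1 was at 333.5 CPM in Ad-GFP replicate 1, against 93.2 to 101.3 CPM in the libraries labelled Ad-RNF128.

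Ad-GFP replicate 1 split the 10 genes into separate classes. P4ha2, Plod1, Plod3, Serpinh1 and Loxl1 were at 65.3% to 114.4% of the mean of Ad-GFP replicates 2 and 3. P4ha1, P4ha3, Plod2, Lox and Loxl2 were at 1.56% to 11.3% of it. Among 10062 genes with a mean of at least 5 CPM in replicates 2 and 3, 22.7% lay within 2-fold and 35.4% were at least 8-fold lower, on the log2(CPM + 1) scale. Each enzyme family had members in both classes.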
